A study of Mus musculus with 90 samples.

Results

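The comparison asked how far the lung response to inhaled styrene differed between transgenic and wild-type mice after 1 week at 120 ppm, and it is expressed for each gene as the transgenic response minus the wild-type response, where a response is exposed minus control on the log2 scale. It compared 20 of the 90 arrays of the series, 5 in each of 4 groups, over all 17097 genes that the arrays could name, with no choice of genes by their values. All animals were adult male C57BL/6 mice, and each array held whole-lung RNA of 1 animal. Wild-type mice (WT) carried their own Cyp2f2, while transgenic mice (TG) lacked mouse CYP2F2 on both alleles and carried the human genes that the labels write as 2F1, SA13 and 2B6. Mice inhaled 0 ppm (controls) or 120 ppm styrene for 6 hours a day on 5 days of the week, and lungs were taken the morning after the last exposure. The promoter and cell type that drive the human genes were not given in the sources used here, and the human transcripts were not analysed here. Groups at 40 ppm, at 4 weeks and of knockout mice (KO), which lack CYP2F2 and carry no human gene, served to place the difference. Their arrays also entered the estimate of spread behind every test, which rested on all 90 arrays.

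Styrene is a vinyl benzene used to make plastics and resins. In mouse lung it is oxidised by cytochrome P450 enzymes, foremost CYP2F2 in the club cells of the bronchioles, and the oxidised products are toxic to those cells, after which surviving cells divide to renew the airway lining. Human CYP2F1 and CYP2A13 are lung enzymes of related families, and mice that carry them in place of the mouse enzyme are used to ask whether the human enzymes give the same lung response.

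Cyp2f2, the deleted gene, was read on the log2 scale at 13.33, 13.24, 13.29, 13.23 and 13.23 in the 5 WT control animals, and at 11.94, 11.63, 11.98, 11.98 and 12.05 in the 5 TG control animals. All TG values lay below all WT values, with a difference of -1.35, or 2.55-fold (exact two-sided permutation test, p = 0.0079, n = 5 per group). Whether the probe set lies inside the deleted part of the gene was not given in the sources used here, so the remaining signal in TG lungs has no set meaning. At 120 ppm the 5 WT values were 12.84, 12.84, 13.26, 13.23 and 12.73 and the 5 TG values 11.82, 11.75, 11.97, 11.58 and 11.92, and the strains' responses differed by 0.18 ± 0.13 (SE; limma, adjusted p = 0.44).

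The 20 array medians ran from 4.42 to 4.84, and the lowest belonged to WT 120 ppm animal 3. In limma's array weights, a relative precision where 1 is usual, that array had 0.135, TG control animal 5 had 0.155 and TG 120 ppm animal 1 had 0.251. Arrays of low weight, here and below, are those under 0.25, so TG 120 ppm animal 1 stayed in the fits without them. Those fits also left out KO control animal 3 at 1 week (0.211) and KO 40 ppm animal 1 at 4 weeks (0.0897). Markers of skeletal and heart muscle, 18 genes, sat 0.66 higher (median) in TG than in WT controls, where their mean per animal ran from 5.02 to 6.58 and from 4.56 to 5.35, and none of them passed in the comparison. Their part in the results was not tested. The club cell marker Scgb1a1 was present in all groups, between 13.58 and 13.93 in every animal. The highest value on any array was 14.01, so a change at that level may not show.

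At 120 ppm the 2 strains went apart in 784 genes (4.59% of 17097), which passed at an adjusted p under 0.05. The difference was negative, meaning lower in TG relative to WT, in 584 (3.42%) and positive in 200 (1.17%), while the median over all genes was -0.06. Genes of cell division made the largest named group of the negative side, beside secreted airway proteins such as Retnla and Agr2, and the paraoxonase Pon1 led the positive side. In 214 of the genes the responses differed by over 2-fold, 194 of them negative.

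Far more genes passed in the WT response than in the TG response. In WT lungs 1161 genes passed (6.79% of all genes), of which 674 rose (3.94%) and 487 fell (2.85%), whereas in TG lungs 2 rose (0.0117%) and 6 fell (0.0351%), together 0.0468% (1583 at an unadjusted p under 0.05). Of the 584 genes with a negative difference, the rise in WT passed in 430 and the WT response was the larger in size in 501, and of the 200 with a positive difference, the fall in WT passed in 149 and was the larger in size in 187. Over the negative genes the median response was 0.54 in WT and -0.22 in TG, and over the positive genes -0.42 in WT and 0.17 in TG. These genes were called for the gap between the same responses, so their medians are a description of the calls and no test. Of the 674 genes that rose in WT, 150 (22.3%) had a positive response in TG, against 35.8% of all genes. Of the 487 that fell in WT, 217 (44.6%) had a negative TG response, against 64.2% of all genes. Leaving out WT control animal 2 gave 633 WT calls in place of 1161, WT 120 ppm animal 3 gave 1844 and WT 120 ppm animal 5 gave 628.

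**Figure D1:**
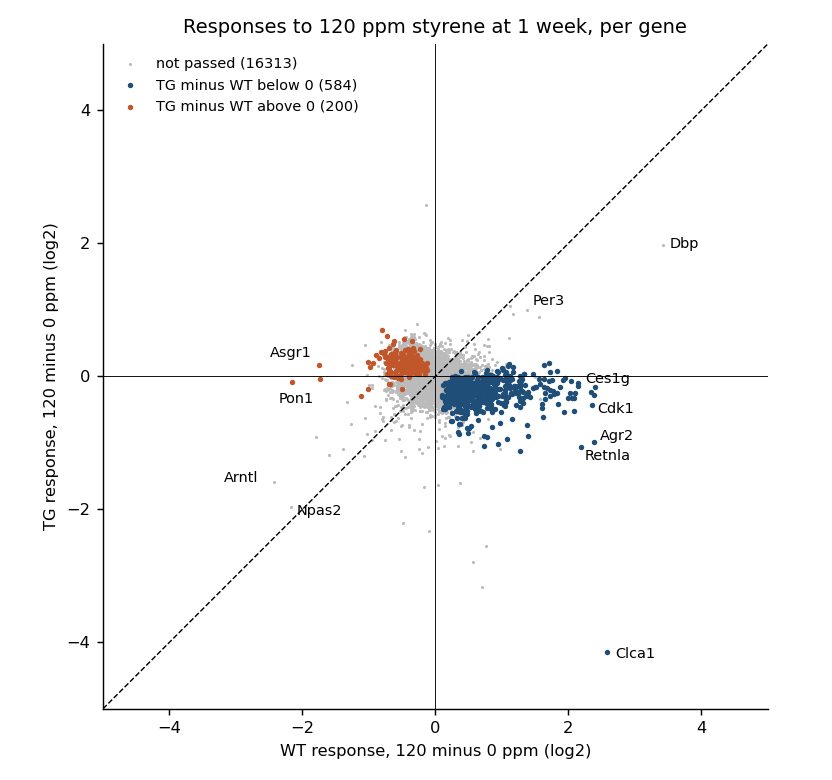
Each point is 1 of 17097 genes, with the WT response on the horizontal axis and the TG response on the vertical axis (120 minus 0 ppm at 1 week, log2, means of 5 animals per group) and equal responses on the dashed line. The 584 genes with a negative difference (blue) lie mostly to the right near 0 on the vertical axis and the 200 with a positive one (orange) to the left, while the clock genes Npas2 and Per3 lie near the dashed line and Dbp and Arntl have the same sign in both strains.

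Fewer genes separated the strains in controls than after exposure. In controls 15 genes differed between TG and WT (0.0877%), 7 higher and 8 lower in TG, and Cyp2f2 and the carboxylesterase Ces1g were among the lower (23 genes without TG control animal 1). After 120 ppm 2918 genes differed (17.1%), 965 higher and 1953 lower in TG, and the count was 1830 without WT 120 ppm animal 5 and 1763 without TG 120 ppm animal 5. In 557 of the 584 negative genes TG lay below WT at 120 ppm with the test passed, and in 192 of the 200 positive genes above. In 210 of the 584 all 5 exposed TG animals lay below all 5 exposed WT animals, against 2.63% of all genes, and in 106 of the 200 all lay above, against 2.01%. The genes were called on these same arrays, so nothing is read from those shares.

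The count of 784 rested on a spread shared by all 90 arrays, as did the standard errors, adjusted p-values and intervals given for single genes. A shared spread is too narrow for a group that varies more than the rest. The count also moved with single animals. Of the 4 groups, exposed WT animals had the lowest weight when each group was given its own, 0.433 against 0.622 to 0.991, and a fit of only the 20 arrays, with their own spread, called 23 genes, of which 22 were among the 784, 21 of them negative. They included Clca1, Agr2, Retnla, Ccl8, Wfdc3, Ces1g and Mt1, and Pon1 was the positive gene. Cdk1, Birc5, Tk1 and Ghrl were not among them. With a weight per group, so that groups may differ in spread, 195 of the 784 passed, and 258 passed with each of the 20 animals left out in turn. Leaving out WT control animal 2 gave 337 genes, TG control animal 1 gave 1208 and TG control animal 5 gave 300, and there were 496, 1858 and 418 without WT 120 ppm animals 2, 3 and 5, and 519, 1229 and 447 without TG 120 ppm animals 1, 3 and 5. Negative genes made up 74.5% of the calls. Their share was 87.2% with a weight per array, 91.8% with a weight per group, 95.7% with only the 20 arrays and 87% without the arrays of low weight, but 64.7% with dim genes left out, 66.4% with a covariate from the poly-A controls and 65.7% without WT 120 ppm animal 4.

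Most mitotic genes rose in WT lungs and none passed in TG lungs. Of 40 measured genes of mitosis (regulators of entry, spindle, chromosome separation and cytokinesis), 29 had a negative difference that passed and none a positive one, with a median difference of -1.49. Over all genes 3.42% passed as negative and 1.17% as positive, the shares to set beside the list counts here and below. The median response was 1.41 in WT, where 36 rose, and -0.15 in TG, where none passed. In whole lung, more dividing cells and more RNA per cell cannot be told apart. The mean over the 40 genes per exposed WT animal was 6.25, 6.12, 4.83, 5.46 and 7.12, against 4.44 to 4.84 in the WT controls, so animal 3 fell within the controls' range and animal 5 stood highest. In exposed TG animals the mitosis mean was between 4.41 and 4.60 and in TG controls between 4.42 and 4.89. Of the 29 genes 25 passed with a weight per group, 27 with each animal left out and 1 with only the 20 arrays.

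Cdk1, the kinase that drives cells into mitosis, was read at 5.75, 5.12, 6.16, 6.12 and 5.66 in WT controls and at 8.45, 8.53, 6.32, 7.62 and 9.66 in exposed WT animals. Its TG control values were 5.10, 5.82, 5.89, 5.64 and 6.46 and its exposed TG values 4.94, 5.49, 5.56, 5.75 and 5.04. All exposed WT animals lay above all WT controls and above all exposed TG animals, and exposed TG animals overlapped their controls. Over all genes, exposed WT animals lay above WT controls without overlap in 1.33%, and exposed TG animals below exposed WT animals in 2.63%. These shares also apply to such gaps in the genes below. The responses of Cdk1 differed by -2.78 ± 0.38 (SE; limma, adjusted p = 5e-07), or 6.88-fold, from 2.36 in WT and -0.43 in TG. With only the 20 arrays and their own spread Cdk1 did not pass (limma, adjusted p = 0.066). Birc5, which encodes survivin of the chromosomal passenger complex, was at 7.13, 7.61, 4.89, 5.98 and 8.67 in exposed WT animals and at 4.23, 4.50, 4.61, 5.26 and 4.05 in exposed TG animals. Exposed WT animal 3 was inside the range of the TG animals for Birc5, and the responses differed by -2.62 ± 0.39 (adjusted p = 5.3e-06). Among the other named genes of the group were the mitotic kinases Pbk (-2.56 ± 0.36) and Aurka (-2.26 ± 0.37), Cdc20 (-2.38 ± 0.42), which activates the anaphase-promoting complex, and Cep55 (-2.28 ± 0.40), which acts in the final cut between daughter cells. Mki67, a common proliferation marker, differed by -1.50 ± 0.48 (adjusted p = 0.054), with exposed WT animals at 6.94, 5.77, 5.61, 6.19 and 7.65 and exposed TG animals at 5.17, 4.44, 4.13, 4.77 and 5.26.

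Many late cell-cycle promoters carry the CCAAT box and the cell-cycle genes homology region TTTGAA, and windows of 150 bases upstream of the RefSeq start (GRCm38.p6) are shown for 3 named mitotic genes that hold them, to place those letters beside genes that moved together. The windows are Cdk1 on chr10:69352913-69353062 (minus strand), Cdc20 on chr4:118437344-118437493 (minus strand) and Aurka on chr2:172370571-172370720 (minus strand). Capitals mark CCAAT and TTTGAA on either strand, so ATTGG and TTCAAA also stand in capitals.
Cdk1: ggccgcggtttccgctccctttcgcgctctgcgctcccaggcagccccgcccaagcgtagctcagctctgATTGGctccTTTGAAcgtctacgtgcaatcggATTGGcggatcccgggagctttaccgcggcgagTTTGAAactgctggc
Cdc20: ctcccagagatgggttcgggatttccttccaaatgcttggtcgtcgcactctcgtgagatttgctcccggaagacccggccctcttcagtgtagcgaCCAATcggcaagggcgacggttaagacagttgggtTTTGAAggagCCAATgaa
Aurka: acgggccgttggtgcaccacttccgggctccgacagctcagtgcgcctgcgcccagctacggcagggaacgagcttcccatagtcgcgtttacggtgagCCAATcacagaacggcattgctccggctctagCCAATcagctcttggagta
In Cdk1 the TTTGAA matches began 71 and 15 bases before the start and the CCAAT matches 80 and 48 bases before it. Cdc20 held CCAAT at 53 and 8 bases and TTTGAA at 18 bases before the start, and Aurka held CCAAT at 51 and 19 bases and no TTTGAA in this window. The 3 were picked for these matches: the same stretch of Birc5 held neither, and Cep55 held TTTGAA in 1 of its 2 windows and CCAAT in none. Over the full windows of 300 bases (250 before and 50 after a start), searched on both strands, TTTGAA was present in 25 of the 33 mitosis genes with a window and CCAAT in 24. Of all 32851 windows in the table, 17.9% held TTTGAA and 37.4% CCAAT, and of the 13605 tested genes with a window, 15.6% and 42.3%. Among the 30 genes of DNA replication with a window 4 held TTTGAA and 18 CCAAT, and among the 478 genes with a negative difference and a window 21.5% and 45.6% did. A match describes the letters and was not tested as a site.

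DNA replication genes went the same way. Of 36 measured genes of DNA replication and S phase, 30 had a negative difference that passed, 34 rose in WT and none passed in TG, with medians of -0.97, 0.95 and -0.05 for the difference, the WT response and the TG response. Tk1, thymidine kinase of the nucleotide salvage pathway, was at 4.66, 3.56, 3.98, 4.01 and 3.83 in WT controls and 6.48, 6.65, 4.49, 5.20 and 7.69 in exposed WT animals. In TG animals it was at 3.56, 4.19, 3.86, 4.05 and 5.25 without and 3.66, 4.07, 4.05, 4.46 and 3.44 with styrene. All exposed TG animals lay below all exposed WT animals, and the responses differed by -2.34 ± 0.38 (adjusted p = 2.1e-05). Uhrf1, a reader of hemimethylated DNA at the fork (-1.94), the origin-licensing factor Cdc6 (-1.82), the ribonucleotide reductase subunit Rrm2 (-1.67) and the helicase members Gins1 (-1.63) and Mcm5 (-1.49) followed. Of the 30 genes 23 passed with a weight per group and 1 with only the 20 arrays. Cdca5, which protects the cohesion of sister chromatids, differed by -2.32 ± 0.35 (adjusted p = 4.9e-06).

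**Figure D2:**
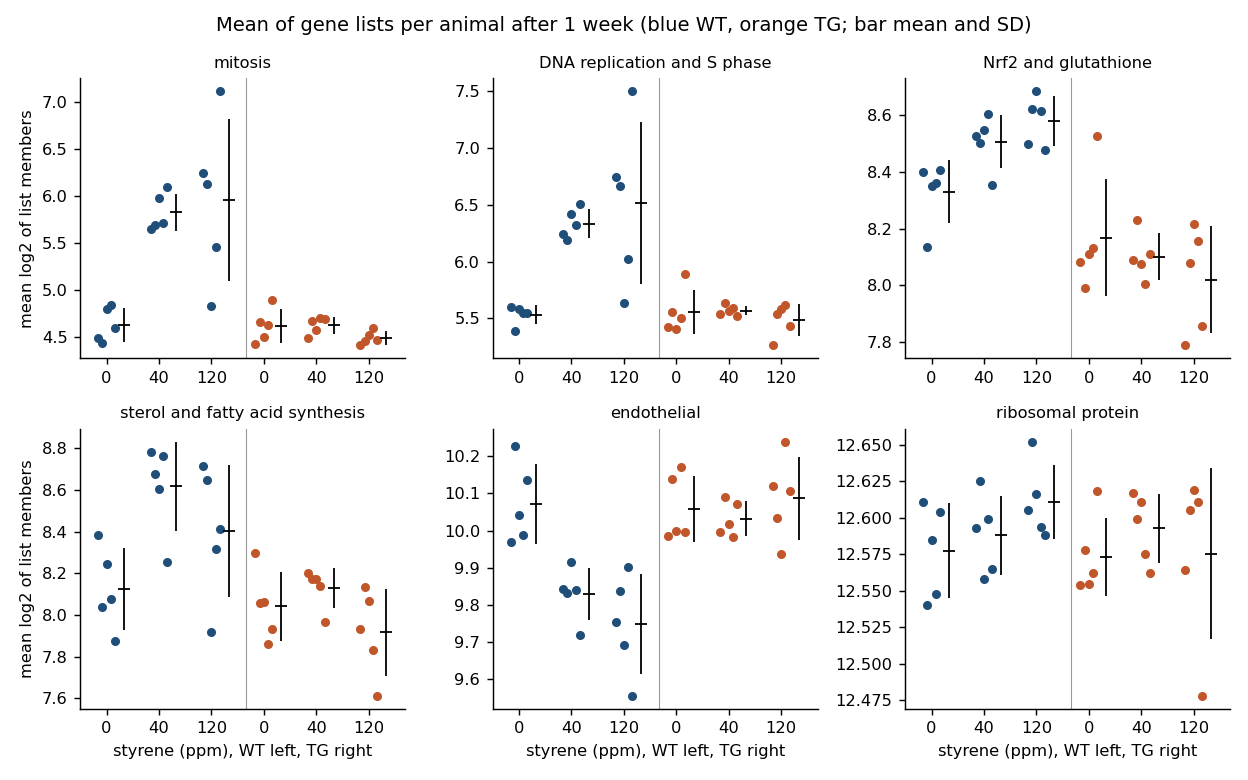
Mean log2 value of the measured members of 6 gene lists, with 1 point per animal and the mean and SD beside each group, in WT (blue, left) and TG (orange, right) at 0, 40 and 120 ppm after 1 week. The mitosis mean ran from 4.83 to 7.12 in WT at 120 ppm and from 4.41 to 4.60 in TG, and the ribosomal protein mean lay between 12.48 and 12.65 in every animal of the 4 groups compared.

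Single genes of airway secretion, Clca1, Agr2 and Retnla, had large negative differences. Of 15 measured genes of mucous metaplasia, the change in which airway cells make mucus, 4 had a negative difference that passed and the sign was negative in 15 of 15, against 60.4% of all genes, with a median difference of -0.58. The median response was 0.32 in WT and -0.49 in TG, and TG controls stood 0.43 above WT controls (median). Per animal, the mean over the list ran from 4.31 to 5.28 in WT controls, 4.75 to 5.81 in exposed WT, 5.26 to 5.99 in TG controls and 4.12 to 4.84 in exposed TG animals. Of the 4 genes 2 passed with only the 20 arrays.

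Clca1, a protein secreted by goblet cells, was at 3.19, 2.28, 3.77, 4.92 and 4.42 in WT controls and at 8.85, 3.06, 5.73, 6.92 and 6.94 in exposed WT animals. In TG controls it was at 4.56, 7.86, 7.27, 8.83 and 8.08 and in exposed TG animals at 3.66, 3.17, 3.64, 2.40 and 2.98. The exposed TG animals all lay below their controls, as in 0.55% of all genes, and the WT groups overlapped. The difference of -6.73 ± 1.40 (SE; adjusted p = 0.0012) was the largest of all that passed, with neither the WT response of 2.59 (adjusted p = 0.10) nor the TG response of -4.15 (adjusted p = 0.13) passing by itself, and it was -3.51 with the median over its 2 probe sets.

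Agr2, a disulfide isomerase that mucin folding needs, was at 4.37, 4.14, 4.62, 4.89 and 5.09 in WT controls and at 7.27, 6.20, 7.59, 7.92 and 6.08 in exposed WT animals. Its TG values were 5.14, 4.74, 5.98, 5.63 and 5.86 in controls and 4.40, 4.41, 4.65, 4.10 and 4.83 with styrene. All exposed WT animals lay above all other animals of the 4 groups, and the responses of Agr2 differed by -3.38 ± 0.66 (adjusted p = 0.00046). Slc26a4, the anion exchanger pendrin, differed by -2.30 ± 0.69 (adjusted p = 0.036), and Fcgbp, a mucus protein, by -1.05 ± 0.27 (adjusted p = 0.013), with no single response of these passing. Slc26a4 lost its call in 14 of 31 alternatives, among them each of those without WT control animals 2 or 5, TG control animals 2 or 5, WT 120 ppm animals 1, 2 or 5, or TG 120 ppm animals 1, 4 or 5. Fcgbp lost it in 4, among them those without WT control animal 2 or TG control animal 5.

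Retnla, which encodes a secreted protein made by airway epithelium and alternatively activated macrophages, was at 10.09, 9.56, 9.94, 10.62 and 9.71 in WT controls and at 12.62, 11.85, 12.13, 11.91 and 12.36 in exposed WT animals. Its TG values were 10.06, 11.70, 10.62, 10.64 and 10.66 in controls and 9.68, 9.87, 9.94, 9.29 and 9.58 with styrene. Exposed WT animals lay above all controls of both strains, and all exposed TG animals lay below all TG controls. The responses of Retnla differed by -3.26 ± 0.44 (adjusted p = 5e-07), from a rise of 2.19 in WT and -1.06 in TG (adjusted p = 0.25). The club cell list of 19 genes gave 2 negative calls, Retnla and the uroplakin Upk3a (-1.20 ± 0.28), and a median of -0.09. Upk3a lost its call with only the 20 arrays and with the 45 arrays of 1 week. The secretoglobins that mark club cells differed by 0.04 ± 0.07 (Scgb1a1, adjusted p = 0.81) and -0.06 ± 0.08 (Scgb3a2, adjusted p = 0.72). Their means over all arrays, 13.77 and 13.33, were near the highest value of 14.01. Flat values there do not show that club cells were unchanged.

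**Figure D3:**
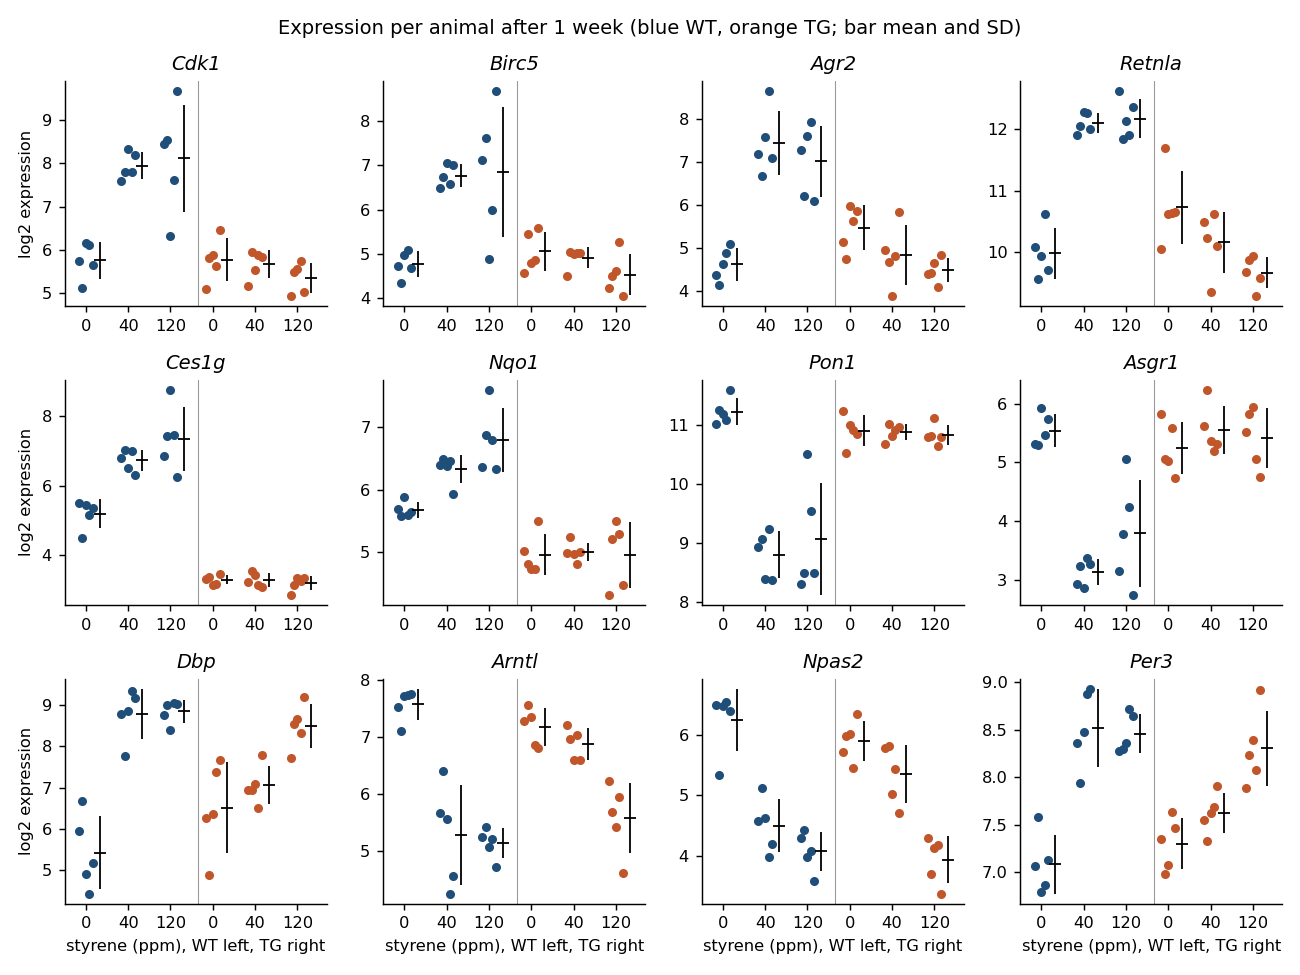
log2 expression of 12 genes in each animal after 1 week at 0, 40 and 120 ppm, WT in blue on the left and TG in orange on the right of each panel, with the mean and SD of 5 animals beside the points. Agr2, Retnla, Ces1g and Nqo1 rose and Pon1 and Asgr1 fell in WT with no overlap between exposed and control animals, while Dbp and Per3 rose and Arntl and Npas2 fell in both strains at 120 ppm.

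Enzymes that handle foreign compounds moved in both directions in WT, and none passed in TG. Of 27 measured genes of xenobiotic oxidation and conjugation, 4 had a positive and 1 a negative difference that passed. Ces1g, a carboxylesterase, was at 5.52, 4.50, 5.46, 5.16 and 5.35 in WT controls and 6.85, 7.43, 8.75, 7.45 and 6.25 in exposed WT animals, with no overlap. In TG it was at 3.33, 3.38, 3.16, 3.18 and 3.46 in controls and 2.87, 3.16, 3.35, 3.28 and 3.35 in exposed animals, so every TG animal lay below every WT animal. These TG values were below the lowest array median of 4.42, and Ces1g was among the dim genes left out in 1 alternative. So low a signal may not show a TG response, which limits the reading of the differences in Ces1g at either time. The Ces1g responses differed by -2.25 ± 0.30 (adjusted p = 3.5e-07), and the controls by -1.89 (adjusted p = 6.4e-10).

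Pon1, paraoxonase 1, an esterase that hydrolyses lactones and organophosphate products, gave the largest positive difference. Its WT values were 11.01, 11.26, 11.19, 11.08 and 11.59 in controls and 8.30, 8.49, 10.51, 9.54 and 8.49 in exposed animals, and exposed WT animals lay below every other animal of the 4 groups (all below the WT controls in 1.31% of all genes). In TG Pon1 was at 11.24, 10.53, 10.99, 10.91 and 10.85 in controls and 10.79, 10.81, 11.11, 10.64 and 10.79 in exposed animals. The responses differed by 2.08 ± 0.28 (adjusted p = 3.5e-07), from a fall of 2.16 in WT and -0.08 in TG. The aldehyde oxidase Aox3 (0.88 ± 0.17) and the flavin monooxygenases Fmo2 (0.81 ± 0.22) and Fmo1 (0.72 ± 0.14) also fell in WT, and none of these 3 passed with only the 20 arrays. Fmo2 also did not pass with a weight per array or per group, or without WT control animal 2, TG control animal 5 or TG 120 ppm animal 5. Cyp2a5, a neighbour of Cyp2f2 on chromosome 7, differed by -1.51 (adjusted p = 0.34), from 0.53 in WT and -0.98 in TG. None of the 20 measured neighbours passed.

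Of 23 genes of the Nrf2 and glutathione response, which is switched on by electrophiles and oxidants, 8 had a negative difference that passed and none a positive one, with median responses of 0.17 in WT and -0.14 in TG. Nqo1, a quinone reductase, was at 5.69, 5.58, 5.88, 5.60 and 5.64 in WT controls and 6.36, 6.88, 7.60, 6.80 and 6.34 with styrene. In TG it was at 5.02, 4.81, 4.73, 4.73 and 5.51 in controls and 4.32, 5.22, 5.50, 5.29 and 4.47 with styrene. Exposed WT animals lay above their controls without overlap, every TG animal lay below every WT control, and the TG groups overlapped. The Nqo1 responses differed by -1.12 ± 0.26 (adjusted p = 0.0039), but by -0.50, without passing, with a weight per array. The aldo-keto reductase Akr1b8 (-1.04 ± 0.24) and the glutathione peroxidase Gpx2 (-1.02 ± 0.27) also lost the call with a weight per array, and Cbr3, a carbonyl reductase (-0.85), Gsr, glutathione reductase (-0.64), and Gclc, the catalytic subunit of glutathione synthesis (-0.61), were the other named members. In controls TG minus WT was -1.06 for Gpx2 (adjusted p = 0.001). Of the 8 genes 3 passed with a weight per group, 2 genes of the list with a weight per array and none with only the 20 arrays.

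Of 20 measured genes of sterol and fatty acid synthesis 5 rose in WT, and the median difference was -0.40. A negative difference passed in 6 of the 20, against 3.42% of all genes. They were Mvd (-1.09 ± 0.31), Fdps (-0.91 ± 0.26), Nsdhl (-0.65) and Fdft1 (-0.62) of the cholesterol pathway and Fasn (-0.68) and the desaturase Scd1 (-0.47) of fatty acid synthesis. For Mvd the WT response of 0.60 (adjusted p = 0.09) and the TG response of -0.49 (adjusted p = 0.50) did not pass alone. Fdps lost its call in 12 of 31 alternatives. The call for Mvd was lost in 11 of 31 alternatives, among them each of those without WT control animals 2 or 5, TG control animal 5, WT 120 ppm animals 1, 2 or 5, or TG 120 ppm animals 1 or 5, and 2 of the 6 genes passed with a weight per group and none with only the 20 arrays.

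Single genes of inflammation differed strongly while few members of their lists passed. Of 24 cytokine and acute phase genes 3 had a negative difference that passed, the chemokines Ccl8 (-2.48 ± 0.46, adjusted p = 0.0002) and Ccl7 (-0.83) and the acute phase protein Saa3 (-2.03 ± 0.62, adjusted p = 0.041). Ccl8 was at 8.66, 8.07, 7.20, 8.06 and 8.90 in exposed WT animals against 5.46 to 6.64 in WT controls, and at 5.88, 6.54, 6.71, 6.15 and 6.04 in exposed TG animals. Its exposed WT animals lay above both of these groups. Ccl8 passed in all 31 alternatives, whereas Ccl7 lost its call in 16 of 30 and Saa3 in 13 of 31, mostly where a single animal was left out (for both, each of WT control animal 2, TG control animal 5, WT 120 ppm animals 1, 2 or 5 and TG 120 ppm animals 1 or 5). Of 17 neutrophil genes 2 passed, the surface glycoprotein Cd177 (-2.58 ± 0.58, adjusted p = 0.0032) and the siderophore-binding Lcn2 (-1.67 ± 0.32, adjusted p = 0.00035), while the calprotectin genes S100a8 and S100a9, which neutrophils hold in bulk, differed by 0.35 (adjusted p = 0.805) and 0.33 (adjusted p = 0.823). Exposed WT animals 1 and 2 carried Cd177 at 8.71 and 8.29 and animals 3, 4 and 5 at 3.77, 4.84 and 6.90, against 3.88 to 4.58 in WT controls. In the macrophage list of 19 genes, Retnla and the protease Ctsk (-1.49 ± 0.36, adjusted p = 0.0068) passed and the median difference was -0.58, and among 15 dendritic cell genes the chemokine Ccl17 passed (-1.21). Ghrl, the ghrelin precursor, was not in a list and differed by -2.67 ± 0.41 (adjusted p = 8.7e-06), with exposed WT animals at 8.05, 8.37, 4.49, 5.88 and 6.74 and WT controls from 4.04 to 4.56. Exposed WT animal 3 was within the WT control range for Ghrl and below it for Cd177. With only the 20 arrays Cd177, Lcn2, Ctsk and Ghrl did not pass. Cd177 was also lost with the 45 arrays of 1 week, and Ctsk with a weight per group. Wfdc3, a small secreted protein gene outside the lists, differed by -2.42 ± 0.31 (adjusted p = 2.2e-07), and by -1.32 with the median over its 2 probe sets.

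Some endothelial genes lay on the positive side. Of 20 measured endothelial genes 4 had a positive difference that passed, against 1.17% of all genes, with a median of 0.43 that came from -0.33 in WT and -0.02 in TG. They were the endothelin receptor Ednrb (0.74 ± 0.20), the angiopoietin receptor Tek (0.66 ± 0.14) and the vascular endothelial growth factor receptors Kdr (0.65 ± 0.14) and Flt1 (0.52 ± 0.12). Kdr was at 10.15, 10.43, 10.19, 10.01 and 10.14 in WT controls and 9.83, 9.71, 9.61, 9.98 and 9.44 in exposed WT animals, and at 10.23, 10.20, 10.18, 10.10 and 9.75 in TG controls and 10.49, 10.32, 10.03, 10.29 and 10.24 in exposed TG animals. All exposed WT animals lay below all WT controls and all exposed TG animals. Of the 4 genes 1 passed with a weight per group, 1 gene of the list with a weight per array and none with only the 20 arrays.

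Asgr1, a subunit of the asialoglycoprotein receptor, fell in WT from 5.31, 5.29, 5.92, 5.46 and 5.73 to 3.15, 3.78, 5.06, 4.24 and 2.75. In TG it was at 5.82, 5.06, 5.03, 5.58 and 4.73 in controls and 5.52, 5.83, 5.94, 5.05 and 4.75 with styrene, and those groups overlapped. The Asgr1 responses differed by 1.92 ± 0.46 (adjusted p = 0.0059), which did not pass with a weight per group or with only the 20 arrays. Of 20 immediate early genes 3 passed as positive, the nuclear receptors Nr4a3 (1.69 ± 0.44) and Nr4a2 (1.22 ± 0.34) and the antiproliferative Btg2 (0.61), and all 3 fell in WT. None of the 3 passed with only the 20 arrays or with a weight per group, and each was lost without some single animal: TG control animal 5 for Nr4a3, WT control animal 2, TG control animal 5, WT 120 ppm animals 2 or 5 or TG 120 ppm animal 1 for Nr4a2, and WT control animal 2, WT 120 ppm animal 5 or TG 120 ppm animal 1 for Btg2. Nr4a3 had 3 probe sets, and the other 2, which were dimmer, gave -0.24 and -0.05. Of 18 p53 target genes Btg2 and the cell death factor Pmaip1 (1.00) passed as positive, and Pmaip1 lost its call in 11 of 31 alternatives. Further positive genes were the neurotrophin Bdnf (1.12), the transcription factor Sox11 (1.33), the guidance cue Sema6a (1.12), Ifi213 (1.49), Itih5 (1.22), Megf11 (1.19), Arhgap20 (1.15), Clec1a (1.15), Fam13c (1.14), Gimap8 (1.13) and Slfn5 (1.12). In each of these 11 genes TG control animal 5, an array of low weight, was the lowest of the TG controls. Without that animal 11 of the 15 largest positive differences did not pass, and Pon1, Asgr1, Sema6a and Fam13c did. Sema6a and Fam13c lost the call with the median over probe sets and with only the 20 arrays, and Fam13c also with a weight per group and without the arrays of low weight. Their dimmer probe sets gave 0.20 and -0.27 for Sema6a and 0.31 and -0.09 for Fam13c.

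Of 16 alveolar type II genes 5 had a negative difference, against 3.42% of all genes, the alarmin Il33 (-1.09), Chil1 (-0.75), Muc1 (-0.61), Ctsh (-0.54) and the surfactant protein Sftpd (-0.29). Of these 5 genes 1 passed with a weight per group, 2 with each animal left out and none with only the 20 arrays. Of 21 fibroblast and matrix genes Timp1 (-1.17), an inhibitor of matrix proteases, and Col1a1 (-1.15) passed. With 3.42% of all genes passing as negative, a count of 1 or 2 in a list is not read as a result about the list. Of 17 genes listed as glucocorticoid targets Saa3, Lcn2 and the metallothionein Mt1 (-1.01 ± 0.16, adjusted p = 2.1e-05) passed as negative, while the median of that list was positive at 0.27. Psat1 (-0.95) and Sdf2l1 (-0.91) passed among 23 genes of amino acid stress and the unfolded protein response, Ankrd37 (-0.97) among 17 hypoxia genes, and Fgg (-1.63) beside Asgr1 among 15 liver genes. Timp1, Col1a1, Psat1, Sdf2l1, Ankrd37, Fgg and Ccl17 each lost the call with a weight per group, with only the 20 arrays and without WT control animal 2 or TG control animal 5. No gene passed in the lists of ciliated cells (16 measured), alveolar type I cells (11), B cells (15), T and NK cells (19), thymocytes (11), the interferon response (17), heat shock (14), fatty acid oxidation (18), erythroid cells (8), adipose (9) and ribosomal proteins (14).

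**Figure D4:**
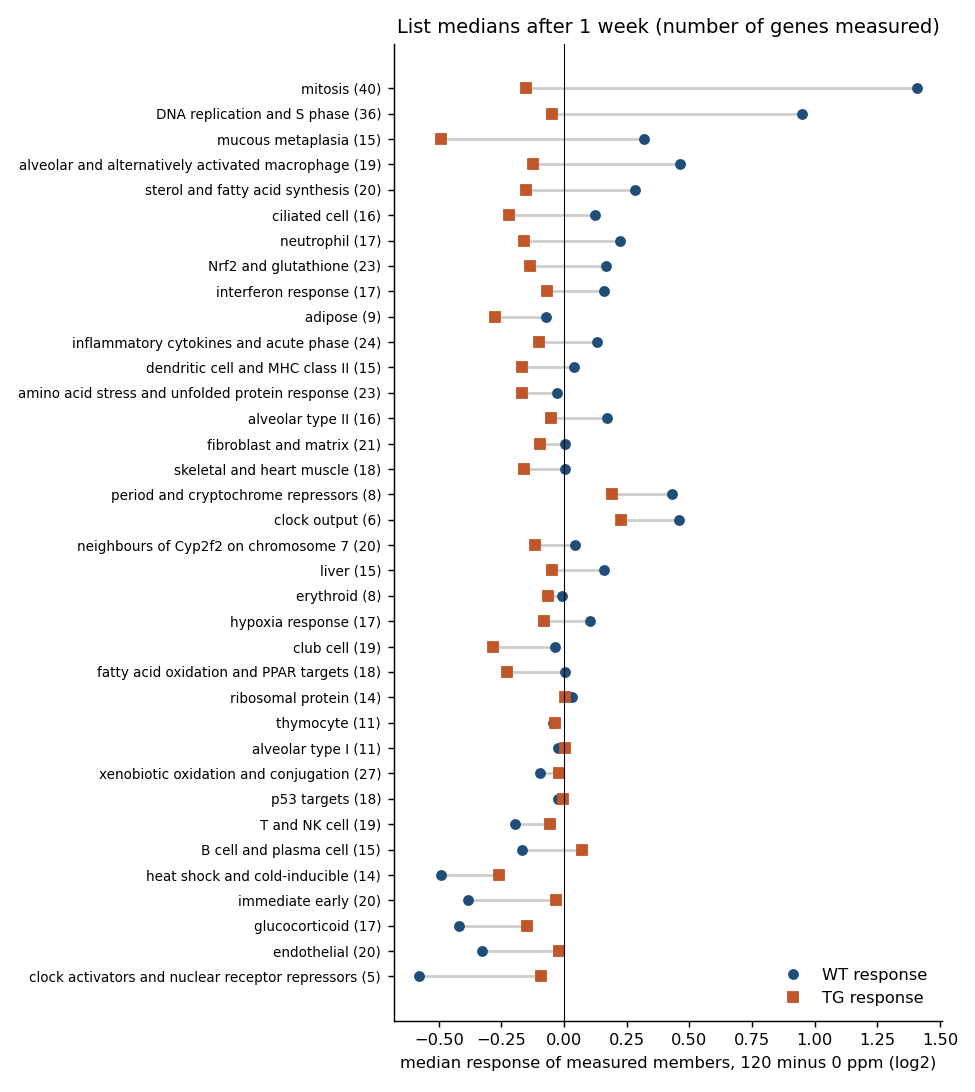
Median response to 120 ppm at 1 week over the measured members of 36 gene lists (number in brackets), as blue circles for WT and orange squares for TG, ordered by the median difference. The widest gap is in mitosis, at 1.41 in WT and -0.15 in TG, and the clock repressor and output lists have both medians above 0.

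Some clock genes passed in the same direction in both strains. The core clock is a loop in which ARNTL with CLOCK or NPAS2 drives genes of its own repressors and of output factors such as DBP, and levels depend on the hour. Of the 8 genes that passed in TG, 5 were clock genes, with Dbp and Per3 up and Arntl, Npas2 and Nfil3 down. The other 3, down as well, were H3c14 and H3c15, near-identical histone genes that a probe may not tell apart, and 1 more gene. That last gene was the only 1 of the 584 with a negative difference whose TG response passed. Of the 200 with a positive difference 0 had one. With single animals left out, the count of TG calls was 2 without TG control animals 2 or 3 or TG 120 ppm animals 2 or 5, 5 without TG control animal 5 and 13 without TG 120 ppm animal 4.

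Dbp was at 5.94, 6.68, 4.91, 4.43 and 5.16 in WT controls and 8.76, 9.01, 8.39, 9.05 and 9.02 in exposed WT animals, and at 6.26, 4.87, 6.36, 7.39 and 7.67 in TG controls and 7.72, 8.55, 8.66, 8.32 and 9.19 in exposed TG animals. Exposed animals lay above controls in both strains, without overlap, as in 1.33% of all genes in WT and 0.0877% in TG. The Dbp response was 3.42 in WT and 1.98 in TG, and the difference of -1.44 ± 0.61 had an adjusted p of 0.15. Arntl fell by 2.43 in WT and by 1.60 in TG, with a difference of 0.84 ± 0.41 (adjusted p = 0.23), and its TG values were 7.28, 7.56, 7.35, 6.85 and 6.80 in controls and 6.22, 5.68, 5.41, 5.94 and 4.61 with styrene. Npas2 fell by 2.17 and 1.96 (difference 0.21 ± 0.40, adjusted p = 0.81), Nfil3 by 1.08 and 1.20 (difference -0.12 ± 0.37, adjusted p = 0.89), and Per3 rose by 1.38 and 1.00 (difference -0.38 ± 0.30, adjusted p = 0.48). A difference that does not pass does not show equal responses. Of the 19 measured clock genes Bhlhe40, a repressor of the loop, had a difference that passed (-0.92 ± 0.25, adjusted p = 0.019), from 1.11 in WT and 0.19 in TG, and it lost the call in 8 of 31 alternatives, among them those without WT control animal 2, TG control animal 5, WT 120 ppm animal 5 or TG 120 ppm animal 1.

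At 40 ppm, which shares both control groups with 120 ppm, 261 genes passed in the same kind of difference (1.53%), 24 positive and 237 negative (1.39%). Over the 584 genes that were negative at 120 ppm the median difference at 40 ppm was -0.59, beside -0.80 at 120 ppm. Cdk1 differed by -2.29 at 40 ppm and -2.78 at 120 ppm, Agr2 by -3.45 and -3.38, Pon1 by 2.40 and 2.08, and 26 mitosis genes passed at 40 ppm. In WT at 40 ppm Cdk1 was at 7.60, 7.80, 8.34, 7.80 and 8.18, an SD of 0.30 against 1.24 at 120 ppm. Dbp had a larger difference at 40 ppm, -2.82 ± 0.61 (adjusted p = 0.0031), as had Arntl, 1.99 ± 0.41 (adjusted p = 0.0018), and TG animals at 40 ppm read Arntl at 7.20, 6.96, 6.59, 7.03 and 6.59, close to TG controls. Leaving out TG control animal 5 gave 147 genes in place of 261, WT control animal 2 gave 164 and WT 40 ppm animal 3 gave 166.

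After 4 weeks at 120 ppm, in other animals with their own controls, 5 genes passed (0.0292%; 698 at an unadjusted p under 0.05), all negative. They were Ces1g (-2.71 ± 0.30, adjusted p = 1.2e-09), the clotting inhibitor Serpind1 (-1.82 ± 0.24, adjusted p = 3.8e-07), Gm8126, Kng1 and Kcnmb4, and Ces1g and Serpind1 (-1.04 ± 0.24 at 1 week, adjusted p = 0.0038) passed at both times. Only 1 of the 5 was bright enough to be tested with dim genes left out, and it did not pass there. The mean over all arrays was 2.67 for Kng1 and 3.31 for Gm8126. At 1 week Serpind1 lost its call with only the 20 arrays and with a weight per array or per group. The count of 5 was 2 without WT 120 ppm animal 2 of the 4-week groups and 3 without WT control animals 2, 4 or 5, TG control animals 3, 4 or 5, WT 120 ppm animal 4 or TG 120 ppm animal 1 of those groups. Of the 584 genes negative at 1 week, 424 (72.6%) were negative at 4 weeks, against 47.1% of all genes, with a median of -0.14, and of the 200 positive ones 182 (91%) were positive, against 52.9%, with a median of 0.17. Across all 17097 genes the differences at the 2 times correlated at Pearson r = 0.44, a description over genes measured on the same arrays.

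The test of the difference between times passed in 58 genes (0.339%), all more negative at 1 week, and 20 of the 40 mitosis genes and 10 of the 36 DNA replication genes were among them. The mitosis list had a median of 0.19 at 4 weeks, where none of its genes passed. Cdk1 went from -2.78 at 1 week to 0.00 at 4 weeks (difference of times -2.78 ± 0.53, adjusted p = 0.0052), Birc5 from -2.62 to 0.32 (adjusted p = 0.0052) and Pbk from -2.56 to 0.47 (adjusted p = 0.0013). For Agr2 (-3.38 and -1.46), Retnla (-3.26 and -1.33) and Pon1 (2.08 and 0.91) the difference of times did not pass, with adjusted p of 0.75, 0.29 and 0.33. The count of 58 was 212 without WT 1-week 120 ppm animal 3, 35 without WT 1-week 120 ppm animal 5 and 36 without TG 1-week control animal 5.

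**Figure D5:**
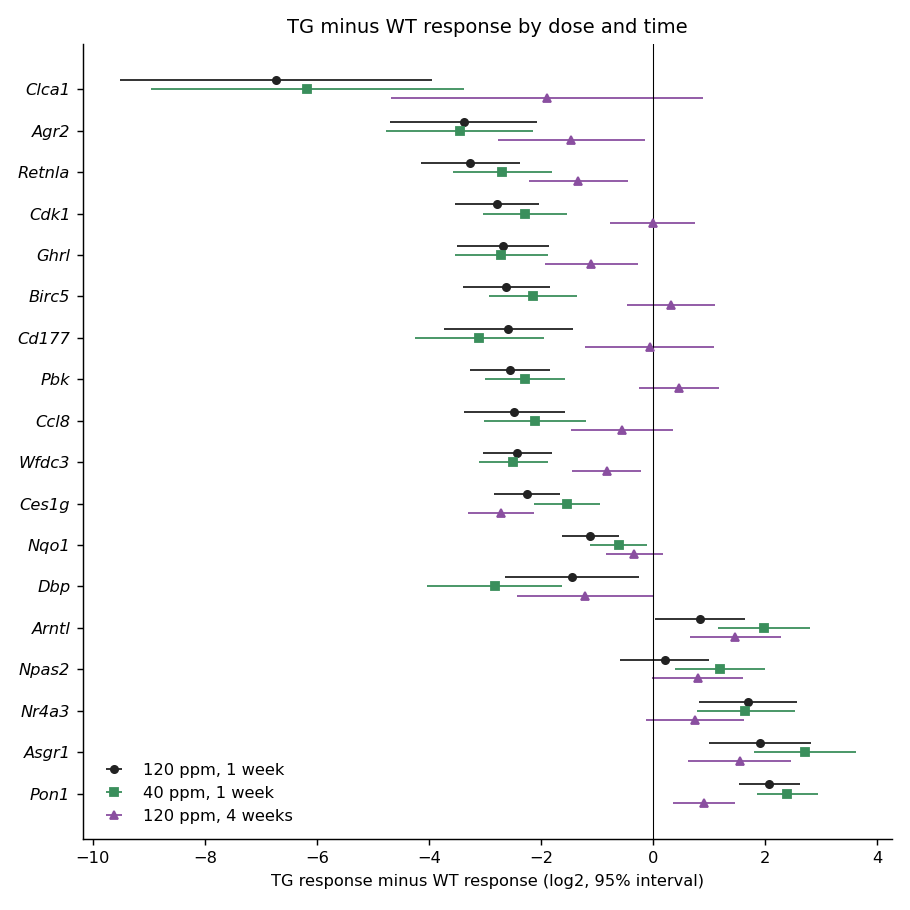
TG response minus WT response (log2, with 95% interval) for 18 genes at 120 ppm and 1 week (circles), 40 ppm and 1 week (squares) and 120 ppm and 4 weeks (triangles). Cdk1, Birc5 and Pbk are below -2 at 1 week and between 0.00 and 0.47 at 4 weeks, while Ces1g is at -2.25, -1.54 and -2.71.

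Against the KO response at 1 week and 120 ppm, which shares the TG arrays, no gene's TG response differed with the test passed (0%; limma, 504 at an unadjusted p under 0.05), and the smallest adjusted p was 0.0839. Leaving out TG control animal 1, TG control animal 2 or KO 120 ppm animal 5 gave 1 gene. The KO response differed from the WT response, with the WT arrays shared, in 405 genes (2.37%), 104 positive and 301 negative (1.76%), and the count was 828 and 671 without WT 120 ppm animals 3 and 4, 158 and 257 without WT 120 ppm animals 5 and 2, 186 without WT control animal 2, 213 without KO control animal 3, and 235 and 269 without KO 120 ppm animals 3 and 4. For Cdk1 the difference from WT was -2.78 in TG and -2.58 in KO, for Agr2 -3.38 and -3.37, for Retnla -3.26 and -2.52, for Ces1g -2.25 and -2.29 and for Pon1 2.08 and 2.07. The mitosis median of TG minus KO was -0.11. A count of 0 does not show that TG and KO responses were the same.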

How the data were processed

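Whole-lung RNA was measured on 90 arrays, 5 animals in each of 18 groups of strain, dose and time. The values are log2 expression per probe set, which the authors deposited as a table, and RMA and Partek are named per the submitters' processing notes (versions not given in the sources used here). RMA fits background, quantile normalization and probe effects over all arrays and pulls arrays toward 1 distribution, so only relative changes can be read, and the number of arrays limits the precision. Of 45141 probe sets, 28898 had 1 gene symbol in the platform annotation, 551 several and 15588 none, and the brightest probe set of a gene, by its mean across the 90 arrays, stood for it, which gave 17097 genes. All 90 arrays entered a single limma 3.58.1 model with a mean for each of the 18 groups (R 4.3.3, lmFit and eBayes, 72 residual degrees of freedom), p-values were adjusted by Benjamini-Hochberg over all genes, and an adjusted p under 0.05 passed; ± is the standard error. The fit was tested on simulated data in which all 18 groups shared 1 spread per gene. There it called 30 of 50 genes changed by 1.5-fold and 43 of 50 changed by 2-fold. A group that varies more than the rest was not simulated, so this says nothing of the calls that depend on the exposed WT animals' spread. The comparison and the 36 gene lists were chosen with earlier results of these data known. Named genes were the 15 largest differences of either sign that passed, up to 6 passed members of each list, up to 5 of either sign of each other comparison, and Cyp2f2, Scgb1a1, Scgb3a2, Mki67, Dbp, Arntl, Pon1 and Nqo1, with predicted genes left out beyond the first 5; S100a8 and S100a9 were named after their values were seen. Alternatives changed the normalization, the filter on dim genes, the probe set rule, the arrays fitted, the variance model, the array weights, a poly-A control covariate and the replicate block, and left out single animals. Promoter windows came from RefSeq (GRCm38.p6). Animals are given in the order of the labels' replicate numbers.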

Additional observations from a re-analysis of the deposited data

Results flagged for a closer look

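Differences between the strains, doses and times were flagged as counts of genes, since a test of the difference itself passed: 784 genes for the TG against the WT response at 120 ppm and 1 week, 261 at 40 ppm and 1 week, 5 at 120 ppm and 4 weeks, and 58 for the 1-week against the 4-week difference. Single animals were checked in the largest genes of the comparison, the genes named for the TG response and the fixed genes. In these 43 genes in 4 groups, or 172 sets of 5 animals, an animal far from the other 4 was found in 5 sets (2.91%). Chance flags about 5% of such sets, or 1 in 20. TG control animal 5 had Megf11 at 4.66, with the others from 6.00 to 6.42, and Gimap8 at 7.21, with the others from 8.70 to 9.14. WT control animal 2 had Npas2 at 5.34, with the others from 6.39 to 6.54, and Nfil3 at 6.44, with the others from 7.15 to 7.27. TG control animal 2 had Cyp2f2 at 11.63, with the others from 11.94 to 12.05.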

How the results depend on the processing

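For the TG minus WT response at 120 ppm and 1 week (784) the count was 23 with only the 20 arrays, 333 with the 45 arrays of 1 week, 407 with a weight per array, 195 with a weight per group, and 300 to 1858 with single animals left out. For the WT response (1161) it was 187, 711 and 394 with the 20 arrays, the 45 arrays and a weight per group, 2967 with the poly-A covariate, 2800 without the arrays of low weight and 628 to 1844 with single animals left out. For the TG response (8) it was 4 with the median over probe sets, 3 with the 20 arrays, 4 with the 45 arrays, 5 with an intensity trend, 1 with a weight per group, 3 with the poly-A covariate and 2 to 13 with single animals left out. For TG minus WT at 0 ppm (15) it was 8 with the 20 arrays, 28 with a weight per array, 24 with the poly-A covariate and up to 23 with single animals left out, and at 120 ppm (2918) it was 812 with the 20 arrays, 818 with a weight per group, 5098 without the arrays of low weight and 1763 to 4016 with single animals left out. At 40 ppm (261) it was 157 with dim genes left out, a fit that tested 158 of the 261. It was 110 with the 45 arrays, 619 with a weight per array and 147 to 312 with single animals left out. At 4 weeks (5) it was 0 with dim genes left out (limma), a fit that tested 1 of the 5. It was 33 with a weight per array, 14 with a weight per group and 2 to 6 with single animals left out. The 1-week minus 4-week count (58) was 13 with dim genes left out, a fit that tested 18 of the 58. It was 129 with a weight per array, 186 without the arrays of low weight and 35 to 212 with single animals left out. KO minus WT (405) was 96 with the 45 arrays, 163 with a weight per group, 1447 with the poly-A covariate, 693 without the arrays of low weight and 158 to 828 with single animals left out, and TG minus KO was 0 to 1. The cause of these shifts was not tested, beyond that fewer arrays or genes enter some fits. Of the values of named genes 4405 kept their direction and side of the threshold, 435 lost the call, 56 gained it and 29 changed sign. Nr4a3 was -0.24 with the median over its probe sets, and the other 28 sign changes were in 13 genes that passed in neither setting. They were Ces1f at 0.41, Fabp3 at 0.23, Jchain at -0.18, Entpd4 and Scgb3a2 at 0.05, Cd1d1 at -0.03 and Vps13d at 0.00 with a weight per array. Without the arrays of low weight they were Ces1f at 0.24, Vps13d at -0.01 and Cd1d1 at 0.00. With quantile normalization Vps13d was at -0.05, and with the median over probe sets Spatc1l at -0.01. Over the fits with single animals left out the range crossed or touched 0 from -0.40 to 0.00 in Hlf, -0.30 to 0.04 in Nfil3, -0.17 to 0.73 in Jchain, -0.05 to 0.18 in Itih2, -0.12 to 0.01 in Trgv1, -0.01 to 0.08 in Vps13d and 0.00 to 0.08 in Scgb1a1.

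With a replicate block the count of 784 was 898, and no count moved by over 1.5 times. Same-numbered animals correlated between -0.609 and 0.369 over 30 pairs (median -0.052), and 12 of the pairs were above 0.1. Animals of different numbers were not compared, so these values cannot decide on pairing. The replicate numbers are not stated to pair animals, so the main fit used no pairing. A dim gene's value near background limits its fold.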
